A study of Mus musculus with 13 samples.

Results

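The respiratory chain and the ATP synthase are the machinery of oxidative phosphorylation in the inner mitochondrial membrane. Complex I takes electrons from NADH, complex II takes them from succinate, complex III passes them to cytochrome c, complex IV hands them to oxygen, and the ATP synthase uses the proton gradient so built to make ATP. Most subunits are encoded in the nucleus and imported, and a small remainder of complexes I, III, IV and the ATP synthase is encoded in the mitochondrial genome. T cells use this machinery throughout life, and activated and proliferating T cells build more of it alongside a high rate of glycolysis.

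The members were the genes of 1 table of normalised RNA-seq reads whose symbol started with Nduf, Uqcr, Cox4, Cox5, Cox6, Cox7, Cox8 or Atp5, together with Sdha, Sdhb, Sdhc and Sdhd. This gave 85 of the 12963 genes listed, by name alone. All 85 passed the filter on low values, a normalised read count of at least 10 in at least 2 libraries, as did 12667 genes in all. By role they comprised 7 catalytic core subunits of complex I, 29 accessory subunits, 7 complex I assembly factors, the 4 subunits of complex II, 8 subunits of complex III, 13 of complex IV and 15 of the ATP synthase. The other 2, Atp5s and Atp5sl, carry an ATP synthase name but are not stable subunits of the enzyme. Ndufa4, named for complex I, was counted with complex IV, in which it resides.

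The cells came from subcutaneous melanomas grown from the mouse line B16-F10 in adult Foxp3-EGFP-DTR mice, an allele that every group carried. In these animals Foxp3 drives EGFP and a human receptor for diphtheria toxin (DTx), which makes Foxp3-expressing regulatory T (Treg) cells visible to the sorter and sensitive to DTx, while PBS served as control. Of the 13 libraries, 3 were Treg cells (Treg PBS), 2 were conventional CD4 T cells (CD4 PBS; Tconv in the following) and 2 were CD8 T cells (CD8 PBS) after PBS, and 3 were CD4 Tconv cells (CD4 DTx) and 3 were CD8 T cells (CD8 DTx) after DTx. The study describes its replicates as isolated on separate days, and the sources do not say whether same-numbered libraries shared a day or a mouse or whether a library pooled mice, so p-values measure the spread between these libraries only. In such bulk samples less RNA per cell and fewer cells of a kind cannot be told apart.

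Libraries held between 15947556 and 34140486 recovered reads, and 3 reads, the detection floor used here, corresponded to 1.98 to 4.10 normalised reads. The labels were checked on Foxp3, Cd4 and Cd8a. Foxp3, which defines Treg cells, had between 1178 and 1896 normalised reads in Treg PBS and at most 12.1 in every other library. Cd4 stayed between 10595 and 32504 in the 8 libraries of CD4-expressing cells and reached at most 413 in CD8 libraries, whereas Cd8a was between 23475 and 48330 in CD8 libraries and at most 1302 elsewhere, the highest value belonging to CD4 DTx replicate 3. Replicate 3 of every group carried reads of the Y-linked genes Ddx3y, Eif2s3y, Kdm5d and Uty and no Xist, and the other 8 libraries carried Xist and at most 0.935 normalised reads of the Y-linked genes in sum, so that sex and replicate number 3 cannot be told apart. In Treg PBS, CD4 PBS and CD8 DTx, replicate 3 also had the lowest members by a wide margin, as described next, and the median of each comparison of 2 groups is therefore also given within each sex.

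The members moved together from library to library. For each gene the deviation of log2(normalised reads + 1) from its own mean over the 13 libraries was taken, and the median over the 85 members was then read for each library. In Treg PBS this median was 0.55, 0.25 and -0.44 in replicates 1, 2 and 3. In CD4 PBS it was -0.21 and -0.66 in replicates 2 and 3, and in CD8 PBS -0.11 and -0.16. The CD4 and CD8 libraries of PBS-treated mice thus lay below the members' average, while the 3 Treg libraries fell on both sides of it. After DTx the medians were 0.24, -0.11 and -0.19 in CD4 Tconv cells and 0.53, 0.58 and -0.25 in CD8 T cells. Over all tested genes the same median lay between -0.06 and 0.09 in every library, which is less than the spread of the members. Replicate 3 was the lowest library of its group for 77 of 84 members in Treg PBS, 77 in CD4 PBS, 52 in CD8 PBS, 51 in CD4 DTx and 81 in CD8 DTx, Cox6a2 being left out because it was at 0 in 9 libraries. The groups ran in the order CD8 DTx, Treg PBS, CD4 DTx, CD8 PBS and CD4 PBS by the mean of their library medians (0.29 ± 0.47, 0.12 ± 0.51, -0.02 ± 0.23, -0.14 ± 0.03 and -0.43 ± 0.31, SD), and no 2 neighbours in this order were further apart than the larger of their SDs.

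**Figure D1:**
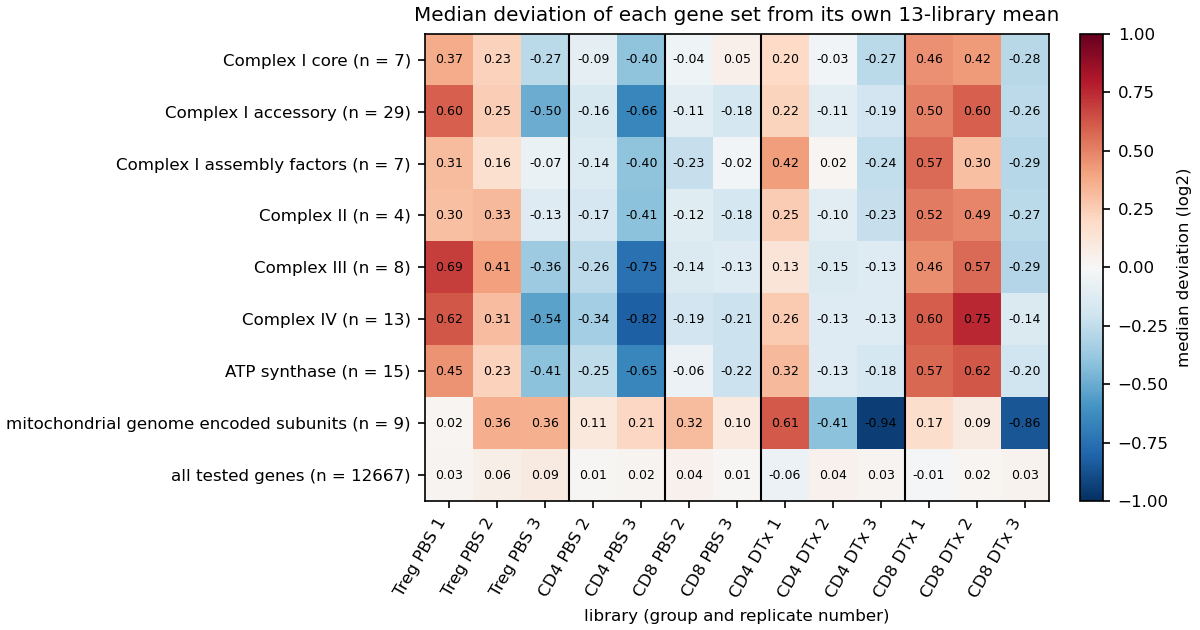
Median deviation (log2) from each gene's own mean over the 13 libraries, with 1 column per library, red above and blue below that mean. Rows are the classes of members without Atp5s and Atp5sl, the subunits encoded in the mitochondrial genome and all tested genes. Most nuclear classes share their colour within a column, from 0.75 for complex IV in CD8 DTx replicate 2 to -0.82 for the same complex in CD4 PBS replicate 3. The mitochondrially encoded row follows another order, lowest in replicate 3 of both DTx groups (-0.94 and -0.86).

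Together the members took between 0.935% and 1.56% of the reads of a library. The ATP synthase held the largest part, 0.478% ± 0.0879 (SD, n = 3) in Treg PBS and 0.419% ± 0.0296 (n = 2) in CD4 PBS. Complex IV took 0.180% ± 0.0591 in Treg PBS, 0.118% ± 0.0277 in CD4 PBS, 0.153% ± 0.00443 (n = 2) in CD8 PBS, 0.164% ± 0.0292 (n = 3) in CD4 DTx and 0.204% ± 0.0475 (n = 3) in CD8 DTx.

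The first comparison asked how tumor Treg cells differ from CD4 Tconv cells of the same PBS-treated condition. Members were mostly higher in Treg cells by a small amount, and 5 of the 85 passed the test (limma over all 12667 tested genes, Benjamini-Hochberg adjusted p under 0.05), where 20.4% of all tested genes did. None of the 5 changed more than 4-fold, as 10.2% of all tested genes did. The iron-sulfur subunit of complex II Sdhb, the complex I accessory subunits Ndufb8 and Ndufb9 and the complex I assembly factor Ndufaf7, a methyltransferase, rose, and Atp5sl fell. The 4 that rose were 4.71% of the members, against 13.5% of all tested genes called higher, and the 1 that fell was 1.18%, against 6.91% called lower. The median log2 fold change of the members was 0.52, with 77 of 85 above 0, beside 0.01 over all tested genes, and the median standard error of a member was 0.34. At an unadjusted p under 0.05 there were 24 members, 23 of them higher, beside at least the 20.4% of all tested genes that passed after adjustment. The full share of all tested genes at an unadjusted p was not computed, here or for the later counts. In edgeR 4 members were called (against 16.9% of all tested genes) and in DESeq2 17 (against 25.8%). In 23 members (27.1%, against 29.2% of all tested genes) all Treg libraries were above both Tconv libraries, and in 3 (3.53%, against 27.4%) they were below, so the share of members higher in every Treg library was near that of genes in general.

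Sdhb, which carries the iron-sulfur clusters that lead electrons from succinate to the membrane, had 10399.6, 9587 and 6739.5 normalised reads in the 3 Treg libraries and 4723 and 3589 in the Tconv libraries. The lowest Treg library was above the higher Tconv library, and the log2 fold change was 1.09 (SE 0.32, limma adjusted p = 0.029). Ndufb8, an accessory subunit of the membrane arm often used as a protein marker of assembled complex I, had 4756, 4399 and 2518 against 2181 and 1491, a log2 fold change of 1.06 (SE 0.32, adjusted p = 0.0362). Ndufb9, also of the membrane arm, had 4765, 3894 and 2327 against 2087 and 1400.3. Its log2 fold change was 1.04 (SE 0.33, adjusted p = 0.0446), and for both genes Treg replicate 3 was only just above CD4 PBS replicate 2. Ndufaf7 had 1687, 1018 and 1029 against 671 and 520.5 (log2 fold change 1.03, SE 0.31, adjusted p = 0.0347). Atp5sl, also known as Dmac2 and described as a factor in assembly of the distal membrane arm of complex I, ran the other way, with 593, 513 and 527 in Treg cells against 1003 and 990.1 in Tconv cells. Its replicates lay close together in both groups, and it fell by 0.87 on the log2 scale (SE 0.23, adjusted p = 0.0183).

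The number of calls moved with single libraries. Leaving out CD4 PBS replicate 2 or 3 left 0 members called, where 10.02% and 9.39% of all genes were called. The remaining CD4 PBS library is then assumed to vary like the other groups. Leaving out Treg PBS replicate 1 or 2 left 1 (against 13.9% and 15.1%), and leaving out Treg PBS replicate 3 raised the count to 33 (against 20.9%). The fold changes themselves kept their sign, Sdhb staying between 0.89 and 1.29 and Ndufb8 between 0.78 and 1.34 on the log2 scale over all alternatives. The median over members was 0.32 without Treg PBS replicate 1, 0.80 without Treg PBS replicate 3, 0.78 without CD4 PBS replicate 2 and 0.33 without CD4 PBS replicate 3. Without the 5 male libraries 2 members were called (against 7.89% of all genes), Ndufb8 and Ndufa1, with CD4 PBS again resting on 1 library, and the median over members was 0.59. Between the male libraries alone, 1 in each group and so without a test, it was 0.14 with 59 of 85 members above 0.

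**Figure D2:**
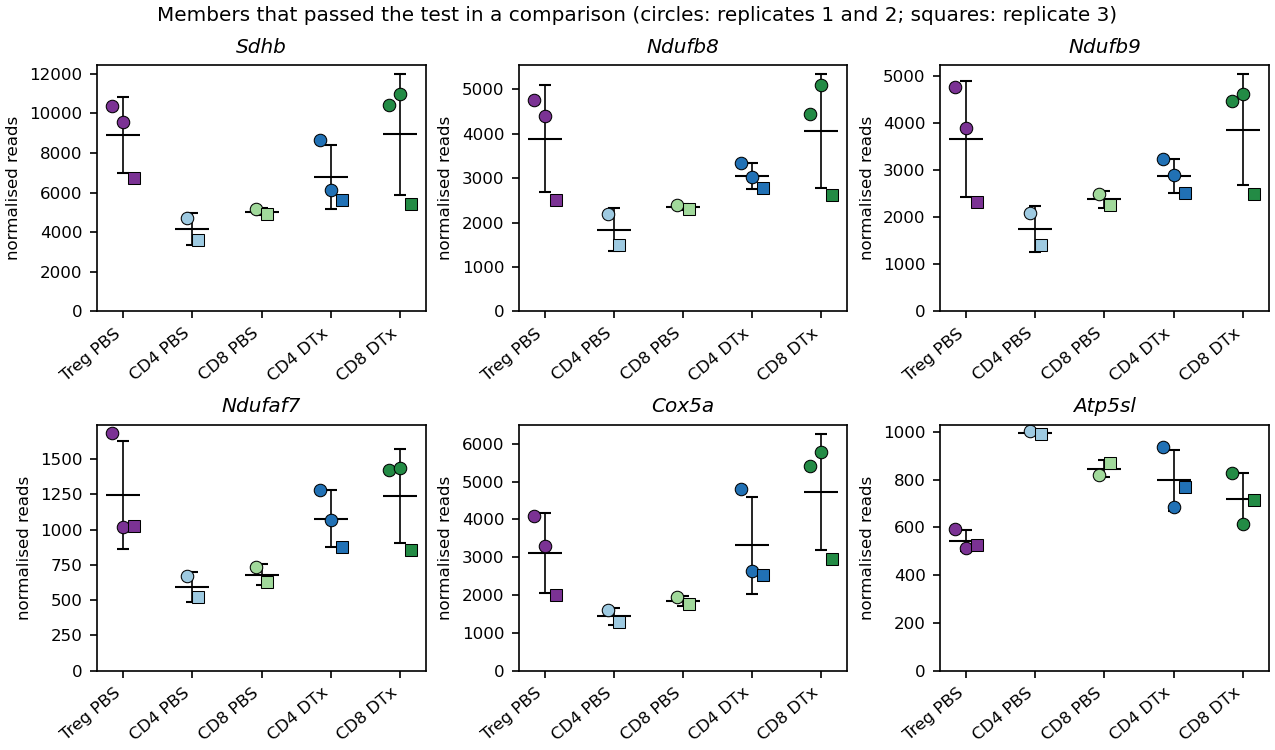
Normalised reads (vertical axes, from 0) of the 6 members that passed the test in a comparison, by group, with circles for replicates 1 and 2, squares for replicate 3, and the mean ± SD in black. Sdhb, Ndufb8, Ndufb9, Ndufaf7 and Cox5a are lowest in CD4 PBS, with replicate 3 at or near the bottom of each group, while Atp5sl is lowest in Treg PBS (513 to 593) and highest in CD4 PBS.

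For the members called in any comparison, the bases around the start sites are shown, from 250 before to 50 after the RefSeq transcription start (GRCm38.p6, 5′ to 3′ on the strand of the gene). Of the 6 members called in any comparison, 5 matched an entry, Atp5sl under its current symbol Dmac2, and Ndufb9 was not analysed here. Capitals mark matches, on either strand, to short motifs of factors known to act on respiratory genes (NRF1, searched as TGCGCA and as GCATGCG, which can share bases; the ETS factor GABP as CCGGAAG; YY1 as AAGATGG) and to the CCAAT box (CCAAT) and TATA box (TATAAA).

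The Sdhb window (chr4:140961021-140961320, plus strand) held the second NRF1 motif 54 bases before the start, the ETS motif just after it and a CCAAT box on the reverse strand, and the Ndufb8 window (chr19:44555393-44555692, minus strand) held the first NRF1 motif and the YY1 motif, both after the start.
Sdhb: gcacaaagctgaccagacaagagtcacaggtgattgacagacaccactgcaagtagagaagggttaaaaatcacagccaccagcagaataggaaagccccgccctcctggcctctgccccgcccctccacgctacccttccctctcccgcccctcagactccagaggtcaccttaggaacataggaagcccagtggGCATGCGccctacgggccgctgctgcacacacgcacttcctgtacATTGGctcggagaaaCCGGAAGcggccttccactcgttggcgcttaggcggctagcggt
Ndufb8: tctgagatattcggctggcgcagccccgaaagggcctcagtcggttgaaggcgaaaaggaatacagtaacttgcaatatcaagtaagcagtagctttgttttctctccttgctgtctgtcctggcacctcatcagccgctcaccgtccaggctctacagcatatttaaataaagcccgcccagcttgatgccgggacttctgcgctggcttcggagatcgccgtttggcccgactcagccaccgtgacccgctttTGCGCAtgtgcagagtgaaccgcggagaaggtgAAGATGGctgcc

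The window of Atp5sl (chr7:25619164-25619463, plus strand), the gene that moved the other way, held the YY1 motif after the start and a CCAAT box.
Atp5sl: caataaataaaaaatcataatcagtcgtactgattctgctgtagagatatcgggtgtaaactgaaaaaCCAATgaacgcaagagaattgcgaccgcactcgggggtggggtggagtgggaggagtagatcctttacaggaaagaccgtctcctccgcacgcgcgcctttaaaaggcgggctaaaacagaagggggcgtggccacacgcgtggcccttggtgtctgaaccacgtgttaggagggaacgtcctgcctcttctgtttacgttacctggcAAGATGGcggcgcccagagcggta

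Neither Ndufaf7 (chr17:78936885-78937184, plus strand) nor Cox5a (chr9:57520982-57521281, plus strand) held any of these letters in its window.
Ndufaf7: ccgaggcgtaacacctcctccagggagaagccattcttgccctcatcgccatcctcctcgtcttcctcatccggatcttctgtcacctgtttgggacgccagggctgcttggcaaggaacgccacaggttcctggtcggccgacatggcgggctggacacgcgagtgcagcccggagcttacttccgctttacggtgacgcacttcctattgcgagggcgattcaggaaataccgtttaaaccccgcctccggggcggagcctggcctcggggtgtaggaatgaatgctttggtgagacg
Cox5a: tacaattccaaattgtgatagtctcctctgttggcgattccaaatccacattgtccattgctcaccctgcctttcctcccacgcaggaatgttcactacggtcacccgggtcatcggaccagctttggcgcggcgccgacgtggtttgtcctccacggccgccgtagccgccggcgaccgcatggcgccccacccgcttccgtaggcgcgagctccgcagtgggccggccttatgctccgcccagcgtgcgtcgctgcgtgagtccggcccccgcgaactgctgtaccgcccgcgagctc

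Of the members, 72 matched a RefSeq window. TGCGCA was found in 19 of them (26.4%, against 8.79% of the 27025 genes with a window), GCATGCG in 13 (18.1%, against 4.01%), CCGGAAG in 17 (23.6%, against 9.93%) and AAGATGG in 12 (16.7%, against 7.28%). The TATA box letters were in 5 (6.94%, against 15.7%) and the CCAAT letters in 31 (43.1%, against 41.1%). A match is a run of letters and not a shown binding site, and a part of these letters in the members' values was not tested.

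By complex, the median difference was highest in complexes IV and III. The 13 complex IV members had a median log2 fold change of 0.70 between Treg PBS and CD4 PBS, the 8 of complex III 0.64, the 15 of the ATP synthase 0.47, the 29 accessory subunits of complex I 0.45, the 4 of complex II 0.41, the 7 assembly factors 0.37 and the 7 complex I core subunits 0.27. All 8 complex III members were above 0, as were 28 of 29 accessory subunits and 14 of 15 ATP synthase members. None of the complex I core subunits passed. Ndufs8 and Ndufv2, the 2 core subunits at an unadjusted p under 0.05, had log2 fold changes of 0.89 (SE 0.34, limma adjusted p = 0.0836) and 0.75 (SE 0.29, adjusted p = 0.0853). The 7 core subunits ran from -0.23 to 0.89, with 6 above 0. Ndufs1, the largest core subunit, went the other way with 3585, 3452 and 3714 in Treg cells against 4156 and 4225 in Tconv cells, groups that did not overlap but gave a log2 difference of only -0.23 (SE 0.16, adjusted p = 0.328).

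In complex III the core subunits Uqcrc1 and Uqcrc2 had log2 fold changes of 0.36 and 0.32, and the Rieske iron-sulfur protein Uqcrfs1 had 0.55, none past the test. The small subunit Uqcr11 had the largest fold of all members above the floor, 1.21 (SE 0.40, limma adjusted p = 0.0507), and was singled out here after its values were seen. In complex IV, Cox4i1, Cox5a and Cox5b, nuclear subunits close to the catalytic core, had 0.77, 1.07 and 0.95, with adjusted p of 0.104, 0.0627 and 0.102. In the ATP synthase the catalytic head subunits Atp5a1 and Atp5b were almost level (-0.01 and 0.09), the central stalk subunits Atp5c1, Atp5d and Atp5e had 0.42, 0.92 and 0.71, and none passed.

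**Figure D3:**
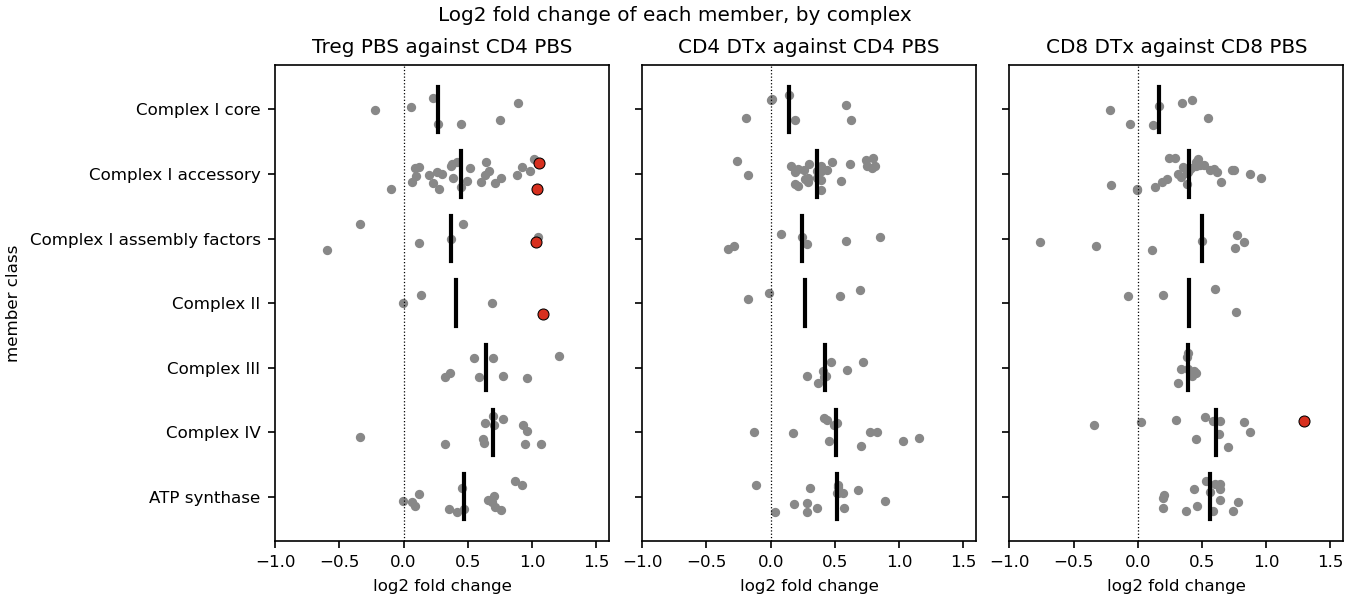
Log2 fold change of each member (1 point each, Cox6a2 left out because it lay near the floor) by class of member, in 3 comparisons, with called members in red and the class median of the drawn points as a black bar. For complex IV the medians in the text include Cox6a2. Most points lie right of 0 in each panel, with medians from 0.14 to about 0.7, and the red points are 4 members in Treg PBS against CD4 PBS and Cox5a in CD8 DTx against CD8 PBS (Atp5sl is not drawn, being no stable subunit).

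The next comparison asked what removal of Treg cells changed in CD4 Tconv cells. Members were again mostly higher, by less, and none passed the test. In limma 0 of 85 were called, against 12.7% of all tested genes (8.64% higher, 4.08% lower, and 6.85% past 4-fold), with 9 members at an unadjusted p under 0.05, all higher, edgeR called 0 as well, and DESeq2 called 2 (against 18.3% of all tested genes), Cox5a and Cox8a. The median log2 fold change was 0.39, with 73 of 85 above 0, beside -0.04 over all tested genes. It rested on single control libraries, being 0.16 without CD4 PBS replicate 3, where 0 members had an unadjusted p under 0.05 in limma, and 0.59 without CD4 PBS replicate 2. By class it was 0.51 for the ATP synthase, 0.49 for complex IV, 0.42 for complex III, 0.36 for the complex I accessory subunits, 0.27 for complex II, 0.25 for the assembly factors and 0.14 for the complex I core. In 38 members (44.7%) all 3 DTx libraries were above both PBS libraries, against 23.4% of all tested genes, and in 3 members (3.53%, against 22.9%), Ndufs1, Sdha and Atp5sl, they were below.

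Cox5a had the lowest adjusted p. This subunit of complex IV, on the matrix side, had 4803, 2625 and 2524 normalised reads in CD4 DTx against 1593 and 1275 in CD4 PBS (log2 fold change 1.15, SE 0.37, limma adjusted p = 0.0648). Cox8a, the small membrane-spanning subunit of the same complex, had 8229, 4617 and 4514 against 3068 and 2420.1 (1.03, SE 0.35, adjusted p = 0.075). For both, replicate 1 was well above the other DTx libraries, and the groups did not overlap. Sdhb and Ndufaf7 had log2 fold changes of 0.70 and 0.85 (adjusted p = 0.184 and 0.0994), while Atp5sl, at 938, 685 and 769, gave -0.33 (SE 0.23, adjusted p = 0.385). Among female libraries the median over members was 0.23, and between the 2 male libraries it was 0.42.

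In CD8 T cells the same comparison gave a single called member, Cox5a, at 5421, 5786 and 2956 normalised reads in CD8 DTx against 1941 and 1756 in CD8 PBS. All DTx libraries were above both PBS libraries, with replicate 3 nearest to them, and the log2 fold change was 1.29 (SE 0.37, limma adjusted p = 0.0456). This 1 of 85 members (1.18%) stands against 7.4% of all tested genes called higher, 3.47% called lower and 10.9% called either way. Past 4-fold were 5.46% of all tested genes, and not Cox5a. At an unadjusted p under 0.05 there were 11 members, all higher, beside at least those 10.9% of all tested genes. The call was lost when any library of these groups other than CD8 DTx replicate 3 was left out, and without that library 19 members were called (against 19.7% of all genes). With either CD8 PBS library left out, the other is assumed to vary like the other groups. The log2 fold change of Cox5a stayed between 1.08 and 1.601 over all alternatives. The median log2 fold change over members was 0.44, with 74 of 85 above 0, beside -0.03 over all tested genes, and was 0.28 without CD8 DTx replicate 2 and 0.70 without CD8 DTx replicate 3. It was 0.66 among female libraries and -0.06 between the 2 male libraries, with 36 of 85 members above 0, so the male pair did not share the direction of the female libraries.

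By class the medians in CD8 T cells were 0.63 for complex IV, 0.56 for the ATP synthase, 0.50 for the assembly factors, 0.40 for the complex I accessory subunits, 0.40 for complex II, 0.39 for complex III and 0.16 for the complex I core. All 15 ATP synthase members and all 8 complex III members were above 0, the latter within 0.32 to 0.45. DTx and PBS groups did not overlap for 26 members that were higher (30.6%, against 22.8% of all tested genes) and for 2 that were lower (2.35%, against 20.8%), Ndufs1 and the assembly factor Ndufaf4. Ndufaf4 had 621, 355 and 435 in CD8 DTx against 697 and 865 in CD8 PBS (log2 fold change -0.76, adjusted p = 0.23 by limma). The test of whether DTx acted differently in CD4 and CD8 cells called 0 members in limma, edgeR and DESeq2. These called 0.0474% (0.0237% in each direction), 0.0316% and 0.695% of all tested genes. In limma 0 members had an unadjusted p under 0.05 in this test. Its median standard error of 0.48 per member was larger than the median DTx difference of the members in either cell type.

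Treg PBS and CD4 PBS, and CD4 DTx and CD4 PBS, share the CD4 PBS libraries, which were the lowest group by mean for 71 of 84 members, so their signs are not independent of each other. CD4 DTx and Treg PBS were compared directly. Here 0 of 85 members were called by limma, edgeR or DESeq2, against 7.91%, 5.86% and 12.2% of all tested genes. In limma 3.36% of all tested genes were higher and 4.55% lower, with 4.01% past 4-fold. At an unadjusted p under 0.05 there was 1 member, Atp5sl (0.54 higher after DTx, limma adjusted p = 0.142). The median was -0.13, with 20 of 85 members above 0. Leaving out Treg PBS replicate 1 turned it to 0.05, and leaving out Treg PBS replicate 3 gave -0.42. It was -0.33 among female libraries and 0.28 between male libraries. Only Atp5sl, higher, and Sdha, lower, had groups that did not overlap, 1.18% of the members each against 10.2% and 15.2% of all tested genes.

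CD8 and CD4 Tconv cells of PBS-treated mice differed in no member by the test. Limma, edgeR and DESeq2 called 0, against 1.08%, 0.758% and 2.57% of all tested genes. In limma 0.837% of all tested genes were higher, 0.245% lower and 0.908% past 4-fold. At an unadjusted p under 0.05 there were 0 members. The median was 0.27, with 78 of 85 members higher in CD8 cells, and in 43 members (50.6%, against 21.7% of all tested genes) both CD8 libraries were above both CD4 libraries, with 3 (3.53%, against 20.7%) below. The median was 0.08 without CD4 PBS replicate 3 and 0.47 without CD4 PBS replicate 2. The difference was 0.11 between the female and 0.42 between the male libraries. After DTx the median of CD8 over CD4 cells was 0.30, with 79 of 85 above 0. Again limma, edgeR and DESeq2 called 0 members, against 1.64%, 1.03% and 4.18% of all tested genes. In limma 0.892% of all tested genes were higher, 0.75% lower and 1.0% past 4-fold. At an unadjusted p under 0.05 there were 2 members, Atp5h among them. Groups did not overlap for 1 member that was higher, Ndufb2 (1.18%, against 7.88% of all tested genes), and for 0 that were lower (against 6.02%). Atp5h, Ndufb2 and Ndufaf4 were chosen after their values were seen. The median difference was 0.50 among female libraries and -0.06 between male libraries. With replicate number as a block, limma again called 0 members, against 3.27% of all tested genes. The median stayed at 0.30, and 8 members had an unadjusted p under 0.05.

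Members differed among themselves with the length of their coding sequence. The longest coding sequence of a member in the GENCODE annotation had a median of 447 bases, against 1371 for the 11547 tested genes with one. In Treg PBS against CD4 PBS the median log2 fold change was 0.66 in the 47 members of up to 0.5 kb, 0.46 in the 25 between 0.5 and 1 kb and 0.13 in the 13 longer ones. Tested genes that were no members ran the same way, 0.42, 0.22 and -0.10 in the same length classes. In CD4 DTx against CD4 PBS members had 0.43, 0.39 and 0.04 and other genes 0.24, 0.16 and -0.14. In CD8 DTx against CD8 PBS members had 0.45, 0.50 and 0.23 and other genes 0.29, 0.16 and -0.12. The members were thus above other genes of their length class by between 0.17 and 0.35, and the part of transcript length in these values was not tested. Sdha, the flavoprotein of complex II, had 18357, 16616 and 17092 normalised reads in Treg cells, against 15516 and 16117 in Tconv cells after PBS and 15409.9, 14481 and 12290.5 after DTx, so that its differences (0.13 and -0.18, neither past the test) were small beside those of Sdhb.

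**Figure D4:**
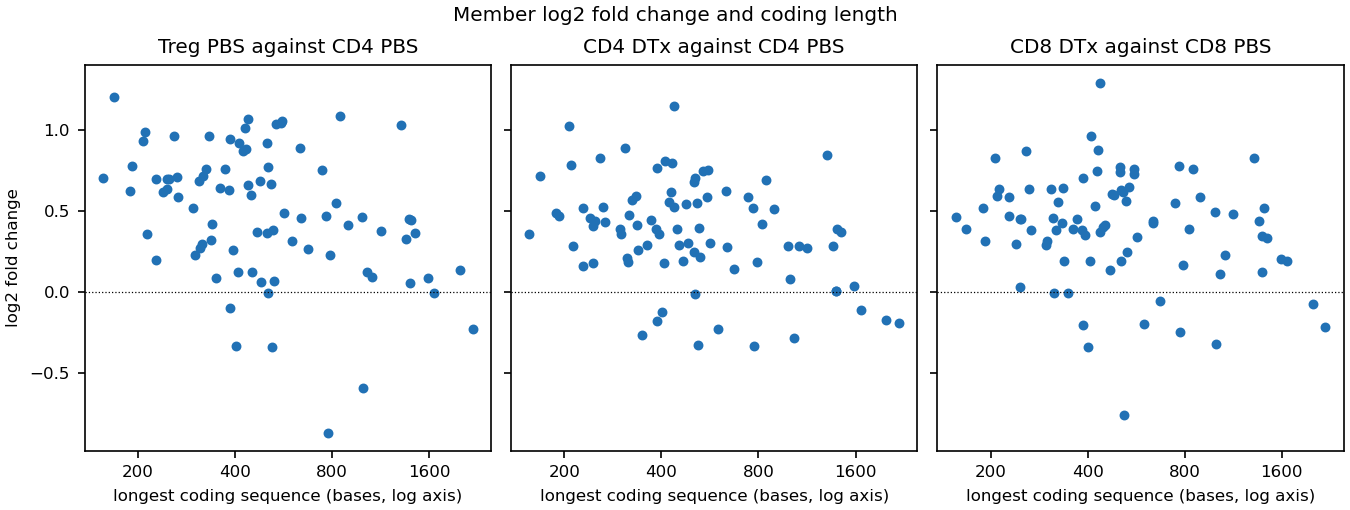
Log2 fold change of each member (vertical axis, Cox6a2 left out) against the length of its longest coding sequence in bases (horizontal log axis) in 3 comparisons. The spread is wide at short lengths, and the longest 4 members, Ndufs1, Sdha, Atp5b and Atp5a1, lie between -0.23 and 0.21 in each panel.

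Some subunits have paralogues that differ between tissues. Cox6a1, the ubiquitous form, had between 2865 and 7332 normalised reads, while Cox6a2, the heart and muscle form, had 0 in 9 libraries and 8.67, 6.07, 13.9 and 53.9 in Treg PBS replicate 2, CD8 PBS replicate 2 and CD8 DTx replicates 1 and 2, so no fold is given for it. Atp5g1, Atp5g2 and Atp5g3 encode the same mature ring subunit of the ATP synthase behind different import signals. Per kb of coding sequence Atp5g3 led with 19100.1 ± 5527 normalised reads (SD, n = 3) in Treg PBS and 10133 ± 902 (n = 2) in CD4 PBS. Atp5g1 had 5845 ± 2062 and 5158 ± 1099, and Atp5g2 5647 ± 1681 and 3539 ± 1085, values within their SDs of each other in Treg PBS. On the log2 scale the Treg difference was 0.87 for Atp5g3 (limma adjusted p = 0.0587), 0.66 for Atp5g2 (0.193) and 0.12 for Atp5g1 (0.837).

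Cox7a2, a complex IV subunit, and Cox7a2l, which helps to join complexes III and IV into supercomplexes, had differences of opposite sign. Cox7a2l had 2047, 2055 and 1773 in Treg cells against 2770.0 and 2196 in Tconv cells, with a log2 difference of -0.34 (SE 0.21, limma adjusted p = 0.271), and Cox7a2 gave 0.70 (adjusted p = 0.184). Neither passed, and the difference between them was not tested. Cox4i1, Cox6b1, Cox8a and Ndufa4 were the forms of their families analysed here (Cox4i2, Cox6b2, Cox7a1, Cox8b, Cox8c and Ndufa4l2 were not analysed here), with log2 differences of 0.77, 0.96, 0.93 and 0.63 between Treg PBS and CD4 PBS. Genes of this kind often have processed pseudogenes, and since the authors kept uniquely mapped reads, reads shared with such copies are lost and the levels of single members are uncertain.

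Other genes of the pathway were read from lists. Of 13 subunits encoded in the mitochondrial genome, 9 were in the table. In limma 0 of them were called in any comparison, with 0 at an unadjusted p under 0.05. In the 3 main comparisons 20.4%, 12.7% and 10.9% of all tested genes were called. The median of the 9 was 0.02 in Treg PBS against CD4 PBS. It was -0.55 in CD4 DTx against CD4 PBS and -0.39 in CD8 DTx against CD8 PBS. The latter 2 were opposite in sign to the nuclear members, a difference that was not tested. Cytochrome b (mt-Cytb) had 47873, 51201 and 48868 in Treg cells and 45112 and 44190.0 in CD4 Tconv cells after PBS. After DTx it had 54332, 29466 and 17739.8 in CD4 and 41380, 40760 and 18385 in CD8 cells, so the low values were those of replicates 2 and 3 of CD4 DTx and replicate 3 of CD8 DTx. The gene is no member and was chosen after its values were seen. mt-Co2 and mt-Co3 had at most 34.6 and 79.5 reads, and mt-Co1 had at least 30709. All 3 count in the medians of this list, and the limit of uniquely mapped reads holds for these genes as for the members.

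Of the 14 carriers and further subunits, 2 rose and 1 fell in Treg cells, near the 13.5% and 6.91% of all tested genes. Atpif1, the inhibitor of ATP hydrolysis by the synthase, had 1953, 1656 and 1061 in Treg cells against 492 and 312 in Tconv cells (log2 fold change 1.94, SE 0.32, limma adjusted p = 0.00109), and Etfb, which passes electrons from fatty acid oxidation to the chain, rose by 1.68 (SE 0.30, adjusted p = 0.00217). Dhodh, the pyrimidine synthesis enzyme that feeds electrons to ubiquinone, fell by 1.02 in both the Treg and the CD4 DTx comparison (adjusted p = 0.0165 and 0.0231) and by 1.15 in CD8 DTx (adjusted p = 0.0157). In CD4 DTx 1 rose, Etfb (1.24, limma adjusted p = 0.0178), against 8.64% of all tested genes. In CD8 DTx 3 rose (against 7.4%), Atpif1 with 1.08 (limma adjusted p = 0.0469) among them. Dhodh was the 1 that fell in each, where 4.08% and 3.47% of all tested genes fell.

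Among 39 assembly factors outside the name rule, 2 rose and 1 fell in Treg cells, 1 rose in CD4 DTx and 2 rose in CD8 DTx. These counts lay below the shares of all tested genes, which were 13.5%, 6.91%, 8.64% and 7.4% in that order. Higd1a, a complex IV and hypoxia-response factor, rose in all 3, with log2 fold changes of 1.73, 1.51 and 1.22 (limma adjusted p = 0.00328, 0.0106 and 0.0361). Cox17, the copper chaperone of complex IV, rose by 1.48 in CD8 DTx (adjusted p = 0.0409), and Hccs, the haem lyase for cytochrome c, by 1.07 in Treg cells (adjusted p = 0.0049). Sdhaf1, an assembly factor for Sdhb, had 276, 202 and 237 in DTx Tconv cells against 928, 922 and 567 in Treg cells, and fell by 1.73 (adjusted p = 0.00674).

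Of the 19 enzymes of the tricarboxylic acid (TCA) cycle and pyruvate entry, 1 fell in Treg cells, 2 rose in CD4 DTx, and 1 rose and 1 fell in CD8 DTx. These counts were near the shares of all tested genes, which were 6.91%, 8.64%, 7.4% and 3.47% in that order. Idh3a, of the NAD-linked isocitrate dehydrogenase, had 7435, 6158 and 4603 in CD4 DTx against 2382 and 2632 in CD4 PBS and rose by 1.25 (SE 0.29, limma adjusted p = 0.0144), and by 1.01 in CD8 DTx (adjusted p = 0.0451). Citrate synthase, Cs, rose by 0.70 in CD4 DTx (adjusted p = 0.0376). Idh2, the NADP-linked enzyme, fell by 1.09 in Treg cells and by 1.75 in CD8 DTx (adjusted p = 0.0428 and 0.00755). The median of the list was -0.03, -0.02 and 0.15 in the 3 comparisons.

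The 19 regulators of mitochondrial gene expression ran below 0, with medians of -0.87, -0.89 and -0.69. In Treg cells 3 fell and 0 rose, the coactivator Pprc1, which fell by 2.59, and the mitochondrial DNA helicase Peo1, which fell by 1.92, among them (limma adjusted p = 0.00874 and 0.00395). Over all tested genes 6.91% fell and 13.5% rose there. In CD4 DTx 2 fell, against 4.08% of all tested genes. Myc, a transcription factor of growth, fell by 2.03 and Lrpprc, which stabilises mitochondrial mRNA, fell by 1.26 (adjusted p = 0.0125 and 0.0372). In CD8 DTx Myc fell by 1.81 and Peo1 fell by 1.65 (limma adjusted p = 0.0277 and 0.0163), where 3.47% of all tested genes fell.

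Of 18 membrane and import genes, the adenine nucleotide translocator Slc25a4, which exports ATP, rose in Treg cells (0.92, limma adjusted p = 0.0106), in CD4 DTx (1.44, adjusted p = 0.00102) and in CD8 PBS over CD4 PBS (1.14, adjusted p = 0.0431). No other gene of this list passed in any of the comparisons. Over all tested genes 13.5%, 8.64% and 0.837% were called higher in the comparisons where Slc25a4 rose.

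Proliferation genes were called in the same comparisons, by larger folds. Of 14, 12 rose in Treg PBS against CD4 PBS, 9 in CD4 DTx and 11 in CD8 DTx. Over all tested genes 13.5%, 8.64% and 7.4% were called higher there. The medians of the list were 4.10, 2.79 and 2.93 on the log2 scale. Ccnb2, the mitotic cyclin, rose by 4.89, 3.69 and 3.36 (limma adjusted p = 0.000121, 0.00111 and 0.00337). Markers of other cells were read as sums over each list. Macrophage genes summed to between 1176 and 4064 normalised reads in Treg cells and to 1349 and 1514 in CD4 Tconv cells after PBS, melanocyte genes to between 727 and 1197 and to 435 and 448, and both lists lay between 137 and 2759 and between 60.7 and 170 after DTx. Over all libraries erythroid genes ranged from 0 to 6570.2, B cell genes from 92.6 to 1296, NK cell genes from 5.89 to 5111 and neutrophil genes from 0 to 360.2. The T cell genes Cd3d, Cd3e, Cd3g, Cd2 and the receptor constants summed to between 97371 and 180429 in every library. The part of proliferation or of other cells in the members' values was not tested.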

How the data were processed

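RNA from sorted tumor T cells was sequenced on an Illumina HiSeq after SMART-type amplification, without molecular identifiers named in the sources. According to the labels and the methods of the study, the authors trimmed reads with Cutadapt, aligned them with hisat2 to NCBIM37 (mm9), kept unique alignments and normalised to library size and intergenic reads. The read counter and strand setting are not given in the sources used here, so overlapping genes are uncertain. They deposited 1 table of normalised signal per gene and library. Within each library 100% of values were whole multiples of 1 step (tolerance 0.01 of a read), each worth 0.661 to 1.37, and whole reads were recovered by dividing by it. Floors cover counting error only.

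From log2(value + 1), limma 3.58.1 in R 4.3.3 estimated 1 mean per group in all 13 libraries (eBayes with trend) over 12667 genes with at least 10 in at least 2 libraries, and adjusted by Benjamini-Hochberg. Fold changes are on this log2(value + 1) scale. Alternatives used edgeR 4.0.16 and DESeq2 1.42.0 on recovered reads, other pseudocounts, filters and scalings, a replicate block, single libraries left out, and, added after seeing the data, sex as a covariate and female libraries alone. The code was tested on simulated data. In CD8 DTx against CD4 DTx, deviations of same-numbered libraries correlated in all 3 pairs (r 0.21 to 0.59). The highest r was that of replicate 3, male in both groups, where pairing and sex cannot be told apart. Between other groups the lowest r was at most 0.19, though single pairs reached 0.30. The numbers were therefore taken to pair only in CD8 DTx against CD4 DTx, from the data. The replicate block is the fit that uses these pairs. Other values of that comparison come from the fit without the block. Members, roles and lists were chosen with earlier results of these data known. Genes named were label checks, the called members, core subunits, paralogues, up to 2 called genes per list and comparison, and genes marked as singled out. The 21 rows whose symbols had turned into dates stayed in the fit and are not named. Promoter windows are RefSeq (GRCm38.p6) and lengths GENCODE M21. Results for 1 gene are not reported here.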

Additional observations from a re-analysis of the deposited data

How the results depend on the processing

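The number of members called in Treg PBS against CD4 PBS was 5. It was 0 when a change of over 4-fold was also asked for, 17 with DESeq2, 4 with edgeR, 2 without the male libraries and 21 with sex as a covariate, where 25.8%, 16.9%, 7.89% and 23.4% of all genes were called. It ranged from 0 to 33 when single libraries were left out, the latter without Treg PBS replicate 3. In CD4 DTx against CD4 PBS the count of 0 became 2 with DESeq2 and with sex as a covariate (18.3% and 14.4% of all genes). It stayed 0 with any single CD4 DTx library left out (9.48% to 11.3% of all genes). In CD8 DTx against CD8 PBS the count of 1 became 0 without a filter on low values (10.6% of all genes) and with the 4-fold threshold (5.46%). It was also 0 with equal totals, with edgeR and in a fit on these groups alone (10.9%, 9.06% and 6.21%). With DESeq2 and with sex as a covariate it was 2 (16.3% and 12.7%). With a single CD8 DTx library left out it was 0 to 19 (6.20% to 19.7%). Without the male libraries, which leaves 1 CD8 PBS library, the median over members was 0.66. With replicate number as a block the counts were 19 for Treg PBS against CD4 PBS and 2 for CD4 DTx against CD4 PBS (25.3% and 16.02% of all genes). For CD8 DTx against CD8 PBS the count was 3 (14.9%), of which 1, Ndufaf4, was lower. The medians over members in these 3 comparisons fell from 0.52, 0.39 and 0.44 to 0.40, 0.23 and 0.29 with the block. With sex as a covariate they were 0.44, 0.31 and 0.35. The block gave 0 for the other 4 comparisons, as in the fit without it. There 13.7% (CD4 DTx against Treg PBS), 1.52% (CD8 PBS against CD4 PBS), 3.27% (CD8 DTx against CD4 DTx) and 0.0711% (difference of DTx effects) of all genes were called. Replicates were isolated on separate days and replicate 3 was male in every group, but no source says that a number marks 1 day across groups. Outside CD8 DTx against CD4 DTx the lowest r of same-numbered libraries was at most 0.19, and they were not taken to pair. The causes of these changes were not tested. The median over members ranged, with single libraries left out, from 0.32 to 0.80 in Treg PBS against CD4 PBS, 0.16 to 0.59 in CD4 DTx and 0.28 to 0.70 in CD8 DTx against their PBS groups, -0.42 to 0.05 in CD4 DTx against Treg PBS, 0.08 to 0.47 in CD8 PBS against CD4 PBS, 0.16 to 0.58 in CD8 DTx against CD4 DTx, and -0.28 to 0.17 for the difference of DTx effects. No called member followed through the alternatives changed sign. Scaling to equal totals lowered the median of all genes to -0.09, -0.18 and -0.23 in the 3 main comparisons and that of the members to 0.40, 0.25 and 0.23.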
